A study of Mus musculus with 3 samples.

Results

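Interferon-stimulated genes are the antiviral effectors, sensors and regulators that a cell switches on after an interferon signal. The set described here holds 45 named genes of the 27179 genes in the table, matched by gene identifier, and all 45 were found. They fall into 7 roles: 3 IFIT genes, 5 OAS genes, 8 GTPase genes, 6 sensors or RNA-binding effectors, 4 transcription factors, 8 genes of the ISG15, ubiquitin or ADP-ribose pathways and 11 other effectors. They were measured by messenger RNA sequencing in cultures of mouse bone marrow stromal cells, labelled wild type in every group, kept at 3% oxygen and given extracellular vesicles for 3 days. Ocn-EV vesicles came from CAGS-Snorkel mice crossed with Ocn-Cre, in which mature osteoblasts express the recombinase from an osteocalcin promoter. For Prx1-EV the donors were CAGS-Snorkel mice crossed with Prx1-Cre, which marks mesenchyme of the limb bud and cells derived from it. The control vesicles, All-EV, came from wild-type mice without these alleles. All donors were C57BL/6N mice 6 months old, and the bone marrow plasma of 5 mice (2 male and 3 female) was pooled per preparation and passed over HA-antibody beads. The sources used here do not tell how beads for HA could hold vesicles of mice without the transgene. Each group is 1 library, so no value has a replicate check, no test between conditions was possible and no p-value is given.

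Type I interferon binds a receptor of Ifnar1 and Ifnar2 chains, whose kinases Jak1 and Tyk2 phosphorylate transcription factors such as Stat2. With Irf9, Stat2 takes part in a complex that binds the interferon-stimulated response element, a pair of GAAA repeats found before the start of many target genes. Interferon-gamma acts through another element, the gamma-activated site. The target genes include RNA and DNA sensors that can themselves lead to more interferon, and macrophages and stromal cells both respond.

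The libraries held 14233978 (Ocn-EV), 17269204 (Prx1-EV) and 15558165 (All-EV) reads assigned to genes, and 1 read was worth 1.04, 0.872 and 1.13 units of the deposited normalized count. The cultures held transcripts of more than 1 cell type: a list of 13 stromal markers took 0.537% of reads with Ocn-EV, 0.350% with Prx1-EV and 0.0862% with All-EV, and a list of 15 macrophage markers took 1.24%, 1.10% and 1.71%. Set against All-EV, 7 of the 11 stromal markers that entered the comparisons passed 2-fold upward with Ocn-EV and 4 with Prx1-EV. The number past it downward was 0. Over all genes 6.27% and 5.12% passed it upward and 4.20% and 3.66% downward. The interval of the ratio lay above 0 for 9 stromal markers and below 0 for 1, Nt5e (log2 ratios of -0.93 and -0.86). Most of the stromal sum of 79088, 52803 and 15171 normalized counts came from Col1a1 (44981, 30399.5 and 7861) and Col1a2 (25448, 16630 and 4596). Of the 15 macrophage markers, 4 were 2-fold higher and 2 lower with Ocn-EV, and 2 were higher and 2 lower with Prx1-EV. The summed normalized count of the macrophage markers was 183218 with Ocn-EV, 165130 with Prx1-EV and 300913 with All-EV, and no macrophage or stromal marker stood at 0. Lyz2 alone had 51741, 40548 and 140306 normalized counts, and the interval of the ratio to All-EV lay above 0 for 9 macrophage markers and below 0 for 6 in each comparison. Against All-EV, the interferon-stimulated genes and the stromal sum were higher in both other cultures, and the macrophage sum was lower. Between Ocn-EV and Prx1-EV, the sums of members, stromal markers and macrophage markers were all higher with Ocn-EV. Macrophage markers went both ways against All-EV, and the part of either cell type in the result was not tested. In such bulk libraries fewer cells of a type and less RNA per cell cannot be told apart. Siglech, Spib and Klk1, markers of plasmacytoid dendritic cells, which are strong interferon producers, had 0 reads in all 3 libraries. The other 5 of the 8 listed markers of these cells had reads, with 1171, 1091 and 468 for Tcf4, 187, 391 and 581 for Cox6a2, 36, 76 and 184 for Bcl11a, 124, 130 and 174 for Pacsin1 and 8, 3 and 6 for Ccr9. All 10 T and NK cell markers together had 26, 23 and 26 reads, with Cd3e, Cd3d and Gzmb at 0 in all 3. Of 9 neutrophil markers Ly6g, Elane and Ltf were at 0 in all 3. Csf3r had 811, 1031 and 344 reads and passed 2-fold upward in each comparison with All-EV (log2 ratios of 1.11 and 1.21). Other neutrophil markers, all under the filter, were highest with All-EV: S100a8 had 7, 3 and 36 reads, S100a9 0, 0 and 6, Ngp 0, 0 and 2 and Camp 7, 5 and 9. Mpo had 1, 0 and 0, so these markers went both ways.

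Short stretches of promoter sequence show what several of these genes share. RefSeq windows on GRCm38.p6 (250 bases before to 50 after an annotated start) were available for 35 members, with 43 windows. The letters GAAANNGAAA, read on both strands and without removing overlaps, were used as a match for the interferon-stimulated response element. They were found in 20 of the 35 members (57.1%), against 1079 of 27025 genes with a window (3.99%). Per window the share was 51.2% of the members' windows and 3.44% of 32851 windows. The letters TTCNNNGAA, used for the gamma-activated site, were found in 10 of 35 members (28.6%), against 9.55% of all genes. Genes were taken as members for their known interferon response, so a high share of these motifs is a property of the list and not of the cultures. The following stretches of 60 bases, all before an annotated start, are printed on the gene's own strand, 5′ to 3′, and capitals mark the matches (TTTCNNTTTC is the same motif on the other strand). For Ifit3 and Oas1a another annotated start lies farther upstream, so their stretches reach into the span annotated for the gene. The IFIT and OAS genes with a match are shown as families, and Stat2 as the transcription factor member with the highest ratios to All-EV. Isg15, Rsad2 and Bst2 were chosen after their values were seen, the last because it carries repeated matches and differed little between cultures.
Ifit1, chr19:34640769-34640828, plus strand: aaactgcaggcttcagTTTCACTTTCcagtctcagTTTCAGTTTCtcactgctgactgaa
Ifit3, chr19:34583365-34583424, plus strand: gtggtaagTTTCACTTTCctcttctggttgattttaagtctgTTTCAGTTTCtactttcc
Oas3, chr5:120777700-120777759, minus strand: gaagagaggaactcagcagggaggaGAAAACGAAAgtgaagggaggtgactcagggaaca
Oas1a, chr5:120907526-120907585, minus strand: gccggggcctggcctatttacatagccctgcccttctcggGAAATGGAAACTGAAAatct
Stat2, chr10:128270251-128270310, plus strand: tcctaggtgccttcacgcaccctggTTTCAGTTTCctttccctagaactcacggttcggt
Isg15, chr4:156200856-156200915, minus strand: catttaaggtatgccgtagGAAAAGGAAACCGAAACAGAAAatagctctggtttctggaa
Rsad2, chr12:26456538-26456597, minus strand: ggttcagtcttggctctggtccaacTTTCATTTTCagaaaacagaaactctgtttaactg
Bst2, chr8:71537565-71537624, minus strand: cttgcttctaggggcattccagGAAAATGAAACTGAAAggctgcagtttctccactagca
Isg15 held 3 overlapping matches in 1 run of GAAA repeats, and Oas1a and Bst2 held 2 each. Ifit1 and Ifit3 held 2 separate matches, both on the other strand. Among all members there were 30 matches, counting 1 again where windows of 2 starts share it, and 26 lay before the start, 24 of them within 160 bases. Windows of Ifit2, Oasl1, Oasl2, Irf7 and Cmpk2 did not hold these letters. Among members past 2-fold upward with Ocn-EV, 15 of 24 with a window held a match, against 4 of 10 members within 2-fold. For Prx1-EV the counts were 12 of 21 and 7 of 13. A match is a description of the letters and not a bound site.

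**Figure D1:**
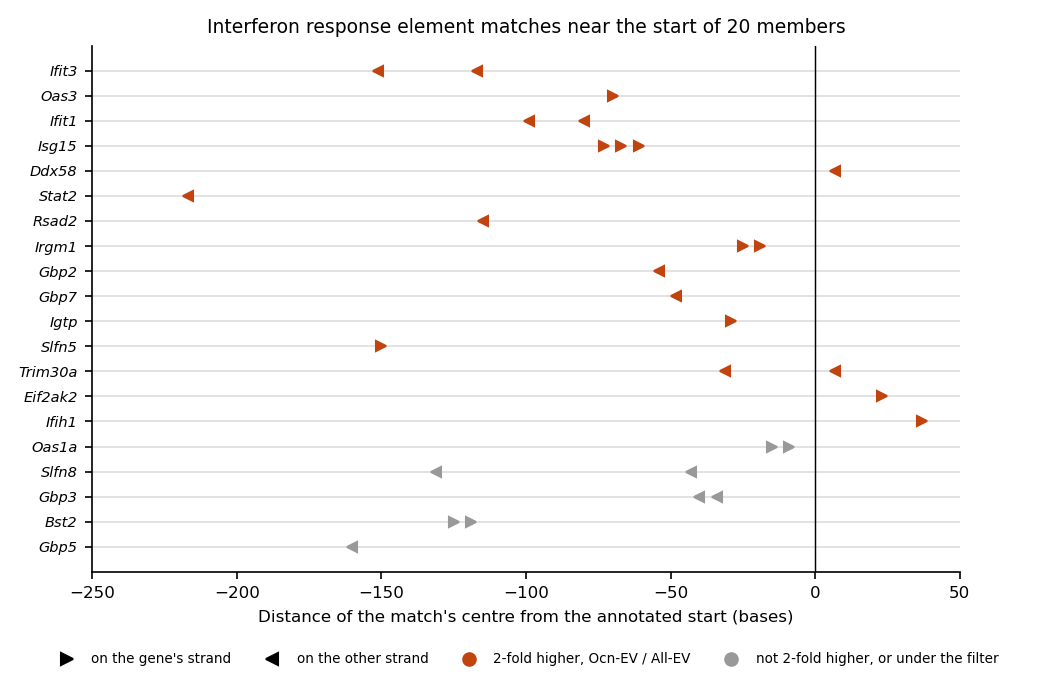
Position of each GAAANNGAAA match relative to the annotated start (x axis, bases) in 20 members (rows). Triangles point along the strand of the match, and orange marks members past 2-fold upward with Ocn-EV; 26 of 30 matches lie before the start.

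Most interferon-stimulated genes stood higher with Ocn-EV than with All-EV. Of the 45 members, 43 had a mean of at least 50 normalized counts over the 3 libraries and entered the comparisons with 11067 genes. A gene was counted when its log2 ratio, log2((a + 1)/(b + 1)) of the normalized counts, was at least 1 in size, a 2-fold difference. With Ocn-EV 31 of the 43 passed this limit upward and 0 downward, against 6.27% of all genes higher (694 genes) and 4.20% lower (465 genes). The higher genes were 59.9% of all such genes, and 81.8% when the libraries were scaled to equal totals. The members' median log2 ratio was 1.38, with a range of -0.26 to 4.82, against a median of -0.02 over all genes. With every member included, 32 of 45 were 2-fold higher, against 14.7% of the 18745 genes with a read when no filter was set. At 1.5-fold 38 of 43 were higher and 0 lower, against 13.8% and 13.6% of all genes. The 95% interval of the ratio, which covers counting error only, lay above 0 for 40 members, below 0 for 0 and across it for 3; over all genes it lay above 0 for 3542 of 11067. Mx1 entered only through its Ocn-EV and Prx1-EV levels, and Mx2 and Gbp5 were under the filter.

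Most listed genes also stood higher with Prx1-EV than with All-EV. Of the 43 members, 28 passed 2-fold upward and 0 downward, against 5.12% of all genes higher and 3.66% lower. The higher genes were 58.3% of all such genes, and 79.6% with equal totals. The median was 1.16, with a range of -0.46 to 4.59, against 0.00 over all genes. Of the full 45, 29 were 2-fold higher, against 10.7% of the 18745 genes with a read when no filter was set. At 1.5-fold 35 of 43 were higher and 0 lower, against 12.7% of all genes in each direction. Both comparisons share the All-EV library, so a high or low value in that culture enters both. The values of each member in both comparisons are given side by side by role below. Taken as a share of all reads, the 45 members made up 0.318% (95% Clopper-Pearson interval 0.315 to 0.321) with Ocn-EV, 0.282% (0.280 to 0.285) with Prx1-EV and 0.119% (0.118 to 0.121) with All-EV.

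**Figure D2:**
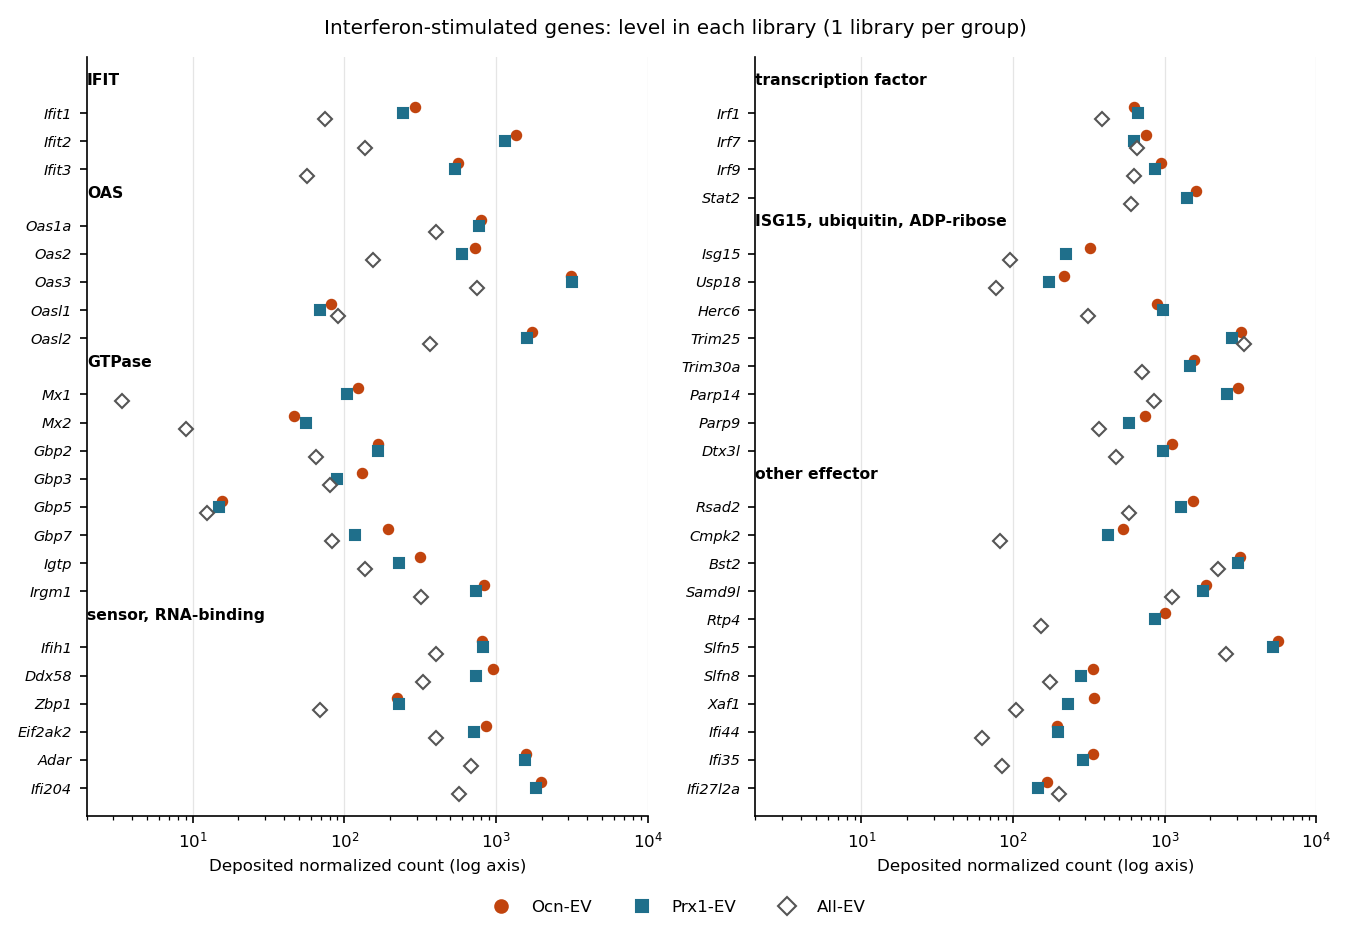
Deposited normalized count (x axis, logarithmic) of each of the 45 members (rows, by role) with Ocn-EV (circles), Prx1-EV (squares) and All-EV (open diamonds), 1 library each. In most rows the All-EV diamond lies to the left of the other pair; Oasl1, Trim25 and Ifi27l2a are the rows where it lies to the right of both.

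**Figure D3:**
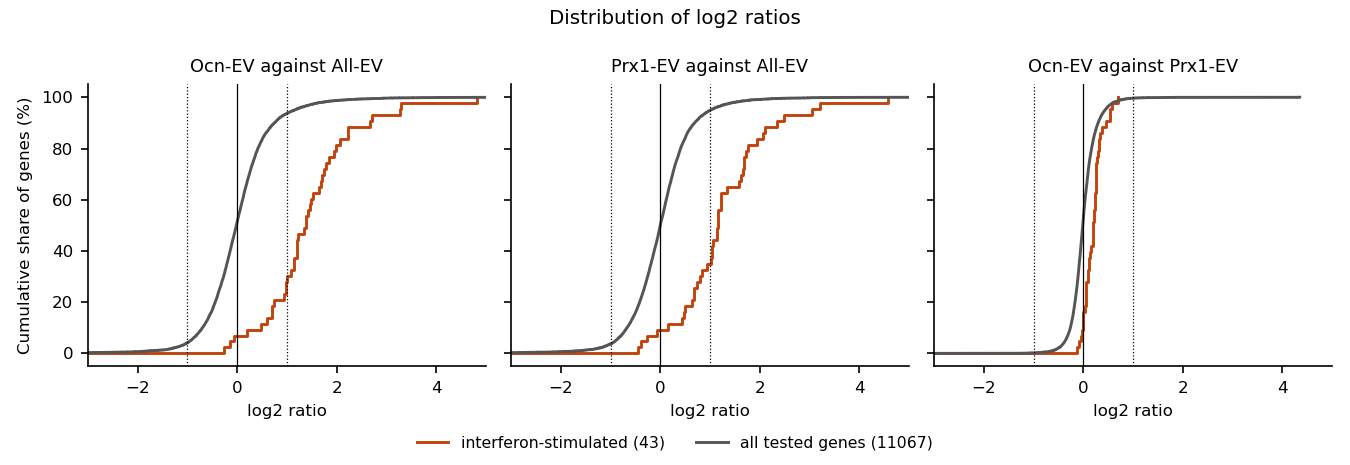
Cumulative share of genes (y axis, percent) against log2 ratio (x axis, drawn from -3 to 5) for the 43 tested members and all 11067 tested genes, in each comparison. The members' curve lies to the right of all genes in both comparisons with All-EV (medians 1.38 and 1.16). For Ocn-EV against Prx1-EV it lies to the right by less (0.20, against -0.01 for all genes), with 38 of the 43 members above the all-gene median.

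The IFIT genes, whose proteins bind foreign RNA and block its translation, had the highest median of any role. All 3 were at least 2-fold higher in both comparisons, with role medians of 3.28 (Ocn-EV) and 3.06 (Prx1-EV). Over all genes 6.27% and 5.12% were 2-fold higher. Ifit2 had 1356 normalized counts with Ocn-EV, 1146 with Prx1-EV and 137 with All-EV. Its log2 ratios to All-EV were 3.30 (95% interval 3.04 to 3.59) and 3.06 (2.80 to 3.35). Ifit3 stood at 558, 536 and 56.6, with log2 ratios of 3.28 (2.88 to 3.75) and 3.22 (2.83 to 3.69). In Ifit2 and Ifit3 the All-EV culture alone was low, and the vesicle cultures of both Cre lines lay close together. Of Ifit3's 100-base stretches 31.7% also occur in Ifit3b, so its reads may be divided between the genes. Ifit1 had 291, 243 and 74.7 normalized counts, a smaller gap, with log2 ratios of 1.95 (1.57 to 2.37) and 1.69 (1.31 to 2.11). The 3 genes lie in 1 cluster on chromosome 19 of GRCm38.p6 (mm10), from the start of Ifit2 at 34550550 to the end of Ifit1 at 34650009.

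The OAS genes encode synthetases that answer double-stranded RNA by making oligoadenylates, which activate RNase L, and catalytically inactive relatives. In this family 3 of 5 were at least 2-fold higher in each comparison, against 6.27% and 5.12% of all genes. The medians were 2.06 and 1.94. Oas3 had 3127 normalized counts with Ocn-EV, 3150.1 with Prx1-EV and 748 with All-EV, log2 ratios of 2.06 (1.94 to 2.19) and 2.07 (1.95 to 2.20). Oasl2 stood at 1723, 1596 and 368 (2.22 and 2.11), and Oas2 at 727, 595 and 154 (2.23 and 1.94). These genes all stood about 4 times higher in the cultures given vesicles of the Cre lines. Oas1a was just under 2-fold, at 798, 769 and 402, with log2 ratios of 0.99 (0.81 to 1.18) and 0.94 (0.76 to 1.12). It shares 40.9% of its 100-base stretches with Oas1g, which stood at 174, 187 and 40.7. Oasl1, which in mice restrains Irf7 translation, did not follow the family: it had 81.8, 68.9 and 90.5 normalized counts, with log2 ratios of -0.14 (-0.61 to 0.32) and -0.39 (-0.86 to 0.07). With equal totals the Ocn-EV value of Oasl1 turned to 0.11. Oas2, Oas3 and Oas1a lie together on chromosome 5, from 120730333 to 120907544, and Oasl2 and Oasl1 lie from 114896926 to 114937911 on the same chromosome.

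The GTPase members comprise the dynamin-like Mx proteins, guanylate-binding proteins and immunity-related GTPases, the guanylate-binding and immunity-related groups being induced strongly by interferon-gamma and active at the membranes of intracellular pathogens. Mx1 had 119 reads with Ocn-EV, 120 with Prx1-EV and 3 with All-EV, or 123, 105 and 3.40 normalized counts. Its log2 ratios were 4.82 (3.60 to 7.48) and 4.59 (3.36 to 7.24), and the wide intervals come from those 3 reads. Mx2, under the filter, had 45, 64 and 8 reads, with log2 ratios of 2.24 (1.26 to 3.66) and 2.50 (1.56 to 3.90). Both Mx genes are annotated as transcribed pseudogenes in the C57BL/6J reference, so their reads mark transcription and not an active antiviral protein. Irgm1, at 827, 742 and 318, and Gbp2, at 166, 166 and 64.5, were higher in both comparisons (log2 ratios of Irgm1 1.38 and 1.22, and of Gbp2 1.35 in each). Gbp7 stood at 193 with Ocn-EV, 118 with Prx1-EV and 82.6 with All-EV, and passed 2-fold with Ocn-EV alone (1.21, against 0.51 with Prx1-EV). Igtp, also called Irgm3, had the same order, with 315, 229 and 137 (1.19 and 0.74). Gbp3 stood at 131, 89.9 and 80.3 (0.70 and 0.16), within 2-fold in both. Gbp5 had only 15, 17 and 11 reads, too few to show a difference at this depth. Gbp5, Gbp7, Gbp3 and Gbp2 lie in that order on chromosome 3, from 142496934 to 142638008. Within that cluster the ratios ranged from 0.70 to 1.35 with Ocn-EV among the 3 tested, and 10.2% of the stretches of Gbp7 occur in other genes.

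Every one of the 6 sensors and RNA-binding effectors was at least 2-fold above All-EV in the Ocn-EV culture, and 5 of 6 in the Prx1-EV culture. The shares over all genes were 6.27% and 5.12%. The medians of these 6 genes were 1.37 and 1.16. Ifi204, a DNA sensor of the HIN-200 family, had 1968, 1845 and 573 normalized counts, log2 ratios of 1.78 (1.64 to 1.93) and 1.69 (1.55 to 1.83); 16.8% of its stretches occur in other genes, mostly Ifi211. Zbp1, which senses Z-form nucleic acids and can start necroptosis, stood at 224, 230.3 and 69.0 (1.68 and 1.72). Ddx58, which encodes the RNA helicase RIG-I, had 952, 733 and 328 (1.53 and 1.16). Levels of Ifi204 and Zbp1 differed little between Ocn-EV and Prx1-EV, whereas Ddx58 had a log2 ratio of 0.38 (0.24 to 0.51) between them. Adar, the RNA editing enzyme, had 1582, 1542 and 685 (1.21 and 1.17). Its ratios were 0.93 in each comparison once a trend with transcript length and GC content was removed, and 16.8% of its exon bases overlap Chrnb2. Ifih1, the helicase MDA5, lay at the 2-fold limit, with 807, 826 and 402 (1.00 and 1.04). Eif2ak2, the kinase PKR that stops translation on double-stranded RNA, passed it with Ocn-EV and not with Prx1-EV, at 863, 719 and 404 (1.09 and 0.83, the second of which was 1.05 with equal totals).

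Of the 4 transcription factors, 1 was at least 2-fold higher in each comparison, against 6.27% and 5.12% of all genes. The medians of 0.66 and 0.63 were the lowest of any role. Stat2 had 1602 normalized counts with Ocn-EV, 1391 with Prx1-EV and 596 with All-EV, with log2 ratios of 1.42 (1.28 to 1.57) and 1.22 (1.08 to 1.37). Irf9, its DNA-binding partner, stood at 949, 864 and 624 (0.61 and 0.47). Irf1, an early factor in interferon-gamma responses, stood at 627, 665 and 384 (0.71 and 0.79). Both lay above All-EV by more than counting error but within 2-fold. Irf7, which amplifies interferon-alpha genes and is itself a well-known interferon target, had 756, 628 and 655 normalized counts. Its log2 ratios were 0.21 (0.05 to 0.37) and -0.06 (-0.22 to 0.10), and the second turned to 0.16 with equal totals. The factor genes therefore spread from about 1 to nearly 3 times the All-EV level.

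Among genes of the ISG15, ubiquitin and ADP-ribose pathways 6 of 8 were at least 2-fold higher in each comparison, with medians of 1.35 and 1.11. The shares over all genes were 6.27% and 5.12%. Parp14, a large ADP-ribosyltransferase, had 3057, 2554 and 848 normalized counts, log2 ratios of 1.85 (1.73 to 1.97) and 1.59 (1.48 to 1.71). Isg15, a ubiquitin-like modifier, stood at 323 with Ocn-EV, 222 with Prx1-EV and 95.1 with All-EV, log2 ratios of 1.75 (1.41 to 2.13) and 1.21 (0.86 to 1.59). Usp18, the protease that removes ISG15 and damps the receptor, had 215, 173 and 77.0 (1.47 and 1.16). Herc6, the main ISG15 ligase in mice, had 882, 970.1 and 313 (1.49 and 1.63) and shares 20.9% of its stretches with Gm45193. Modifier, ligase and protease were thus all above 2-fold in both comparisons. Dtx3l, a ubiquitin ligase, stood at 1118, 972 and 476 (1.23 and 1.03), and its partner Parp9, next to it on chromosome 16, at 735, 581 and 371 (0.98 and 0.64). Trim30a, a tripartite motif protein, stood at 1567, 1474 and 709.6 (1.14 and 1.05). Trim25, the ubiquitin ligase that acts on RIG-I, was abundant in every culture, at 3173, 2765 and 3316, with log2 ratios of -0.06 (-0.14 to 0.01), which was 0.19 with equal totals, and -0.26 (-0.33 to -0.19).

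Of 11 other effectors 7 were at least 2-fold higher in each comparison, against 6.27% and 5.12% of all genes. The medians were 1.39 and 1.13. Rtp4, a receptor chaperone with antiviral activity, had 998 normalized counts with Ocn-EV, 858 with Prx1-EV and 152 with All-EV, log2 ratios of 2.71 (2.46 to 2.99) and 2.49 (2.24 to 2.77). Cmpk2, a mitochondrial nucleotide kinase, stood at 527, 421 and 81.5 (2.68 and 2.36). Rsad2, which encodes viperin and neighbours Cmpk2 on chromosome 12, stood at 1532, 1287 and 585 (1.39 and 1.14). The neighbours thus differed in size of ratio, and All-EV was the lowest culture for both. Ifi35 had 338, 290.5 and 84.9 (1.98 and 1.76), and 16.8% of its exon bases overlap Gm11626. Xaf1, a pro-apoptotic zinc-finger protein, had 342, 229 and 104 (1.70 and 1.13), and Ifi44 had 196, 198 and 62.2 (1.64 and 1.65). Slfn5, a Schlafen protein, had 5595 and 5181 normalized counts, against 2524 with All-EV (1.15 and 1.04). A smaller gap was seen for Slfn8, with 338, 282 and 175 (0.94 and 0.68), Samd9l, with 1877, 1799 and 1116 (0.75 and 0.69), and Bst2, the membrane tether tetherin, with 3133, 3035 and 2248 (0.48 and 0.43). Ifi27l2a stood at 168, 147 and 201, with log2 ratios of -0.26 (-0.58 to 0.05) and -0.46 (-0.77 to -0.15), and these became 0.34 and 0.17 once the trend with length and GC content was removed.

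**Figure D4:**
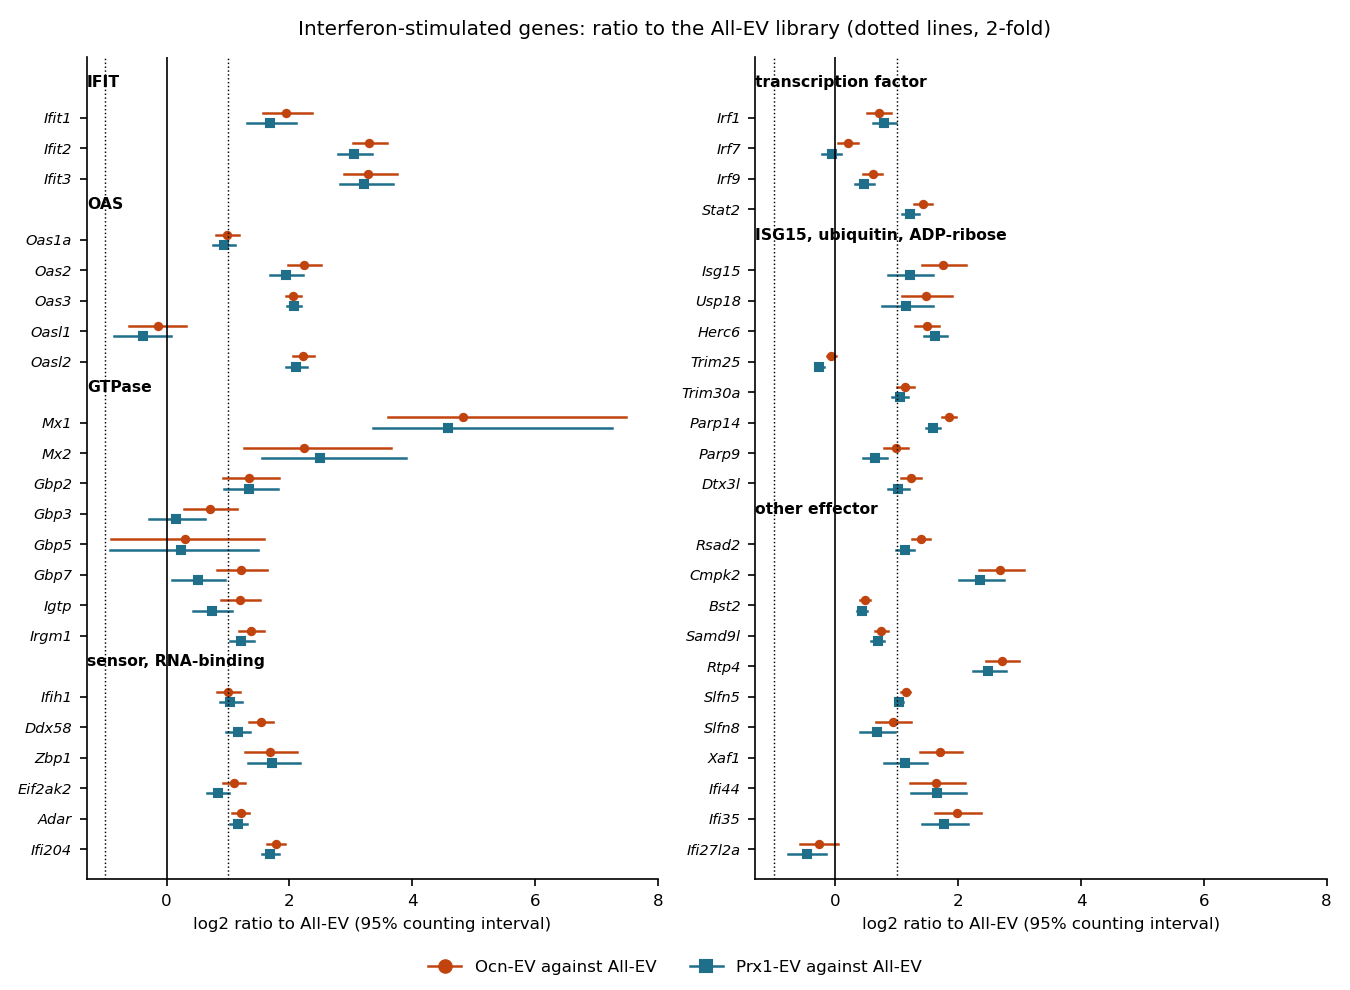
Log2 ratio to All-EV (x axis) of each member with Ocn-EV and with Prx1-EV, by role, with 95% intervals for counting error only; dotted lines mark 2-fold. All 3 IFIT genes lie beyond 2-fold, while 3 of the 4 transcription factors lie inside it. Over all genes 6.27% (Ocn-EV) and 5.12% (Prx1-EV) were 2-fold higher.

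Per kilobase of each gene's longest annotated transcript, the order of the members differed between cultures. Places of different genes depend on that choice of transcript. For Irf7 it was 3240 bases long, nearly the whole span of the gene (141263183 to 141266499). Bst2 was the highest in each, with 3956 normalized counts per kilobase with Ocn-EV, 3832 with Prx1-EV and 2838 with All-EV. With All-EV it was followed by Trim25 (593), Ifi27l2a (435) and Slfn5 (422). The cultures given Ocn-EV and Prx1-EV instead had Slfn5 (936 and 867), Ifi204 (857 and 804) and Oas3 (662.5 and 667) next. Ifit2 stood at place 15 of 45 with Ocn-EV, 17 with Prx1-EV and 34 with All-EV. Rtp4 stood at places 7, 7 and 24, and Irf7 at places 23, 23 and 8. Of the 5 members at the top of the All-EV order, Bst2, Trim25 and Ifi27l2a lay within 2-fold in both comparisons, and Slfn5 and Ifi204 did not. These places carry no replicate error, and neighbours within a few percent are not separated.

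Between Ocn-EV and Prx1-EV cultures the members' ratios stayed within 2-fold. With Ocn-EV 0 of the 43 were 2-fold higher and 0 lower than with Prx1-EV, against 0.325% of all genes higher and 0.190% lower. At 1.5-fold Gbp7 was the 1 member higher and 0 were lower, against 2.24% and 1.30% of all genes. With 43 genes the counts at both limits lie near the shares over all genes. The median log2 ratio was 0.20 (all genes -0.01), with a range of -0.14 to 0.70. The counting interval lay above 0 for 26 members, below 0 for Herc6 and across it for 16, against 1744 above and 2244 below of 11067 genes, so many small gaps exceed counting error, while the spread between cultures is unknown. Gbp7 had the highest ratio, 0.70 (0.38 to 1.04), then Xaf1 with 0.57 (0.34 to 0.81), Gbp3 with 0.54 (0.16 to 0.94), Isg15 with 0.54 (0.30 to 0.79) and Igtp with 0.45 (0.21 to 0.70). Of these 5 genes, 3 are GTPases, and the role's median was 0.34, against 0.24 for IFIT and 0.11 for OAS. Ifit3, Oas3, Gbp2, Ifi44, Zbp1 and Adar had ratios between -0.04 and 0.06.

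Interferon transcripts themselves were nearly absent. Of 21 ligand genes, 19, among them every listed interferon-alpha gene, had 0 reads in all 3 cultures. A count of 0 allows up to 3 reads in a library. Ifnb1 had 0 reads with Ocn-EV, 0 with Prx1-EV and 3 with All-EV, and Ifng had 1, 0 and 0. No ligand difference was detectable at this depth, and vesicle or serum protein was not measured.

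The 6 receptor genes, of which 5 were tested, held 0 calls in either direction. With 5 genes this is near the share over all genes (6.27% and 5.12% higher, 4.20% and 3.66% lower). Ifnar1 had 2445 normalized counts with Ocn-EV, 2512 with Prx1-EV and 1747 with All-EV, log2 ratios of 0.48 (0.39 to 0.58) and 0.52 (0.43 to 0.61). Ifnar2 had the opposite order, with 1578, 1631 and 2688, log2 ratios of -0.77 (-0.86 to -0.67) and -0.72 (-0.81 to -0.63). The chains of the type I receptor were thus on opposite sides of All-EV, each within 2-fold. Ifngr1 had ratios of 0.77 and 0.60, and Ifngr2 -0.13 and -0.11, which were 0.13 and 0.11 with equal totals. Ifnlr1, the chain specific to interferon-lambda, had 0 reads in all 3 cultures.

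Of the 9 JAK-STAT genes listed 8 were tested. The 1 gene at least 2-fold lower in each comparison was Socs3, against 4.20% and 3.66% of all genes. Socs3, a feedback inhibitor best known from cytokines of the interleukin-6 family, stood at 96.3, 100.3 and 242, log2 ratios of -1.32 (-1.70 to -0.97) and -1.26 (-1.61 to -0.94). Ptpn6, a phosphatase of blood cells, had 0.90 and 0.82, and the kinases Tyk2 and Jak1 had 0.62 and 0.54, and -0.53 and -0.44.

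Of 16 upstream sensing genes, all tested, 2 (12.5%) were at least 2-fold higher in each comparison and 0 lower. Over all genes 6.27% and 5.12% were higher and 4.20% and 3.66% lower, so with 16 genes the counts lie near those shares. The medians were 0.27 and 0.33. Tlr9, the endosomal receptor for unmethylated DNA, had 229 normalized counts with Ocn-EV, 213 with Prx1-EV and 26.0 with All-EV, log2 ratios of 3.09 (2.51 to 3.82) and 2.98 (2.41 to 3.72). Like Mx1, it was under 50 normalized counts with All-EV and entered through the cultures where it was high, so its call was partly fixed by the filter. Dhx58, the helicase LGP2, stood at 492, 448 and 179 (1.45 and 1.32) and is itself an interferon target. Ticam1, the adaptor TRIF, had 535, 558 and 1046 (-0.96 and -0.90). Tmem173, which encodes STING, had ratios of 0.74 and 0.42, and Tlr4 had -0.15, which was 0.10 with equal totals and 0.01 without the length and GC trend, and -0.23.

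A list of 46 other type I induced genes, of which 37 were tested, had 15 at least 2-fold higher and 0 lower in each comparison. Over all genes 6.27% and 5.12% were higher, and the list's medians were 0.76 and 0.70. Oas1b stood at 113, 94.2 and 11.3 (log2 ratios of 3.21 and 2.95), Ifi203 at 649, 579 and 95.1 (2.76 and 2.59), and Trim30d at 680.3, 679 and 126 (2.43 and 2.42). Oas1b and Oas1g also entered only through their Ocn-EV and Prx1-EV levels. Ifitm3, a membrane protein that blocks viral entry, had 2136, 1870.4 and 2820.2 (-0.40 and -0.59). The first of these ratios became 0.07 once the trend with length and GC content was removed, and -0.14 with equal totals.

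Of 13 further interferon-gamma induced GTPases 6 were tested, and Gbp8, Gbp9, Irgm2 and Ifi47 were 2-fold higher in both comparisons (medians 1.30 and 1.29, 0 lower). The share over all genes was 6.27% and 5.12%. Gbp8 and Gbp9 were under 50 normalized counts with All-EV and entered through the other cultures, and the Ocn-EV call of Gbp8 (1.05) was lost at a pseudocount of 10 (0.90). Gbp9 had 270.2 normalized counts with Ocn-EV, 256 with Prx1-EV and 31.7 with All-EV (3.05 and 2.97), whereas Gbp6 had 106, 94.2 and 121 (-0.20, which was 0.06 with equal totals, and -0.36). Antigen processing genes are classic interferon-gamma targets. Of 11 tested of 12, 0 were 2-fold higher, which is near the share over all genes (6.27% and 5.12%), and B2m, the invariant chain of MHC class I, was the 1 gene counted lower with Ocn-EV, at 25929, 28727 and 51891 (-1.001 and -0.85). That call was lost with equal totals (-0.74) and with the length and GC trend removed (-0.49). It was also lost with scaling to the median of genes outside the interferon lists. The medians of the antigen processing list were 0.13 and 0.21. Tap1 had ratios of -0.41 and -0.32, and Psmb10, an immunoproteasome subunit, 0.88 and 0.82. Of 5 interferon-induced chemokines Ccl5 alone was tested, and it had 4 reads with Ocn-EV, 13 with Prx1-EV and 230 with All-EV, log2 ratios of -5.67 (-7.86 to -4.60) and -4.40 (-5.45 to -3.72). It passed the filter only through its All-EV level, so a low ratio was built into its being tested. Cxcl9 and Cxcl11, named after their values were seen, had 0 reads in all 3 cultures, and Cxcl10 had 7, 0 and 10.

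**Figure D5:**
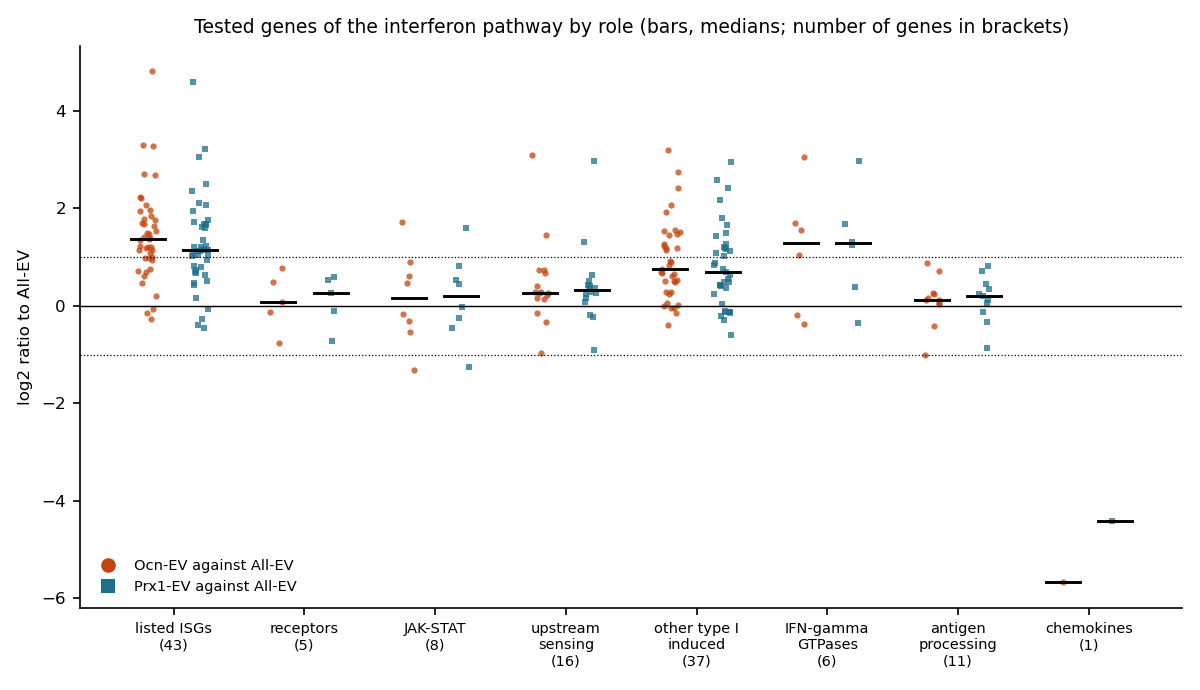
Log2 ratio to All-EV (y axis) of every tested gene in the member list and in each pathway list (x axis), with Ocn-EV and with Prx1-EV; bars are medians and dotted lines mark 2-fold. Medians with Ocn-EV run from 1.38 for the 43 listed genes to 0.087 for the receptors, and the single tested chemokine, Ccl5, which entered through its All-EV level, lies at -5.67.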

How the data were processed

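Bulk messenger RNA libraries of 3 cultures (1 for each of Ocn-EV, Prx1-EV and All-EV) were compared, with groups taken from the labels. A NEBNext Ultra II kit, 100 ng of RNA and 150-base read pairs are given in the labels' protocols. The deposited table holds 1 normalized count per gene and library, a signal value scaled by the authors. Per the submitters' processing notes, reads were handled with DESeq2 2.11.40.8 (a number of Galaxy wrapper form, so the tool's own version is uncertain), featureCounts 2.0.3, HISAT2 2.2.1, Trimmomatic 0.38.1 and FastQC 0.74 on build mm10, in an order and with settings the notes do not state. Whether strand was used is not stated, so reads of overlapping genes on opposite strands may be mixed.

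Whole reads were recovered by dividing each value by that of 1 read, and 100% of values came out whole at a tolerance of 1e-06. RefSeq's GRCm38.p6 table (the build of mm10) gave symbols for 25275 identifiers and none for 1904. All genes with a mean of at least 50 normalized counts (11067) entered, with a pseudocount of 1 that understates ratios of low genes. Intervals are exact conditional binomial (Clopper-Pearson, 95%) from reads and cover counting error only. PCR copies of a molecule were not marked, so reads may not be independent and the intervals may be too narrow. Shared sequence was the share of a gene's 100-base transcript stretches found in other genes, from GENCODE vM21 transcripts. Each gene's longest transcript was used for this, for its length and for its GC content. Promoter sequences are RefSeq's. Scripts ran in Python 3.11.15 with NumPy 2.4.6, SciPy 1.17.1 and pandas 2.3.3 and were tested on simulated data.

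The members, pathway and marker lists and tests were chosen with earlier results of these data known, so the lists' direction is no independent evidence. All members could be named. Of each pathway list the 3 tested genes farthest from 0 in each direction against All-EV could be named, and the report names some of them, with Ifnb1, Ifnar1 and Ifnar2. A gene that is withheld is not reported here. Others (Oas1g, Ifnlr1, Ifng and genes named only for shared sequence, gene lists at 0 or called groups) were named after their values were seen. Alternatives were the filter, pseudocount, scaling, fold, shared sequence and a trend with length and GC content.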

Additional observations from a re-analysis of the deposited data

How the results depend on the processing

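No paired analysis was possible because each group holds 1 library, and for the same reason no replicate could be left out. Across all alternatives run, 24 to 38 members were counted higher with Ocn-EV and 22 to 35 with Prx1-EV than with All-EV, and 0 lower in each. The lowest counts came from leaving out members that share sequence or exons with other genes (35 tested), and the highest from a 1.5-fold limit. The alternative on shared sequence or exons and a minimum All-EV value of 50 (30 and 27 of 42) were chosen after seeing the data. The share of all genes counted higher moved with the setting. It was 6.27% (Ocn-EV) and 5.12% (Prx1-EV) at 2-fold and 13.8% and 12.7% at 1.5-fold. Equal totals gave 10.1% and 8.20%, the length and GC alternative 5.65% and 4.85%, and the minimum All-EV value 4.55% and 3.65%. Scaling the libraries to equal totals set the median over all genes at 0.24 (Ocn-EV) and 0.22 (Prx1-EV) and the members' medians at 1.63 and 1.38, so relative to all genes the members' gap was nearly as reported. At a 1.5-fold limit 1 member, Gbp7, was counted higher with Ocn-EV than with Prx1-EV, against 2.24% of all genes. Removing a trend with length and GC content (known for 99.0% of tested genes) left 33 and 26 members higher; Adar fell under 2-fold in both comparisons, and Dtx3l and Slfn5 with Prx1-EV. Ifih1 with Ocn-EV was lost at a pseudocount of 10. Oas1a and Parp9 with Ocn-EV crossed 2-fold upward under equal totals, scaling to the median of genes outside the interferon lists, and the length and GC alternative. With equal totals Samd9l and Slfn8 with Ocn-EV and Oas1a, Eif2ak2 and Irf1 with Prx1-EV also passed 2-fold; with the length and GC trend removed, Slfn8 with Ocn-EV and Oas1a with Prx1-EV did. Low reads limit Mx1, Mx2 and Gbp5.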
